A study of Mus musculus with 6 samples.

Results

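The potassium channel genes of the mouse genome were followed in hippocampal RNA. The set was every gene of the deposited tables whose symbol begins with Kcn, continues with letters and ends in a number, which takes in pore-forming and auxiliary subunits and leaves out antisense and overlapping noncoding names. This gave 92 of 55411 annotated genes, of which 86 had at least 1 read and 72 had enough reads to be tested. The samples were hippocampi of offspring mice, 3 in the group labelled as exposed to clothianidin (CLO) and 3 in the vehicle control group. The series describes exposure of male C57BL/6N mice to CLO, a neonicotinoid insecticide that activates nicotinic acetylcholine receptors of insects, at 50 mg/kg/day, the non-observed-adverse-effect level, and its title speaks of paternal exposure. Neither the sex, age, litter or sire of the sampled animals nor the vehicle is stated in the labels, and nothing says that the libraries came from separate litters, so p-values measure only the spread between these libraries.

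Potassium channels let K+ leave the cell and so set the resting potential, end each action potential and limit repetitive firing. Voltage-gated (Kv) subunits open on depolarisation, calcium- or sodium-activated subunits open when these ions rise inside the cell, inward rectifiers (Kir) and tandem-pore (K2P) subunits carry current near rest, and auxiliary subunits alter the gating or trafficking of the pores they bind. In the hippocampus, Kv channels shape pyramidal cell and interneuron firing, G-protein-gated Kir channels carry slow inhibition, and Kir channels of astrocytes take up K+ released by active neurons.

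Most potassium channel genes had lower mean levels in CLO than in control libraries, but none passed the adjusted threshold. Summed over the 92 genes, the deposited level in TPM (transcript abundance corrected for length and depth) was 1601, 1331 and 1120.2 TPM in CLO libraries, against 1576, 1569 and 1466 TPM in control libraries. CLO replicate 1 was therefore the highest of the 6 libraries and CLO replicates 2 and 3 were the lowest. Values in lists run over replicates 1, 2 and 3 throughout. Of the 72 members tested, 58 had a log2 fold change of CLO over control below 0, against 51.8% of all 16129 genes tested, and the median was -0.24, against -0.01 over all genes. At an unadjusted p under 0.05, 20 members (27.8%) were lower, against 7.26% of all genes, and 0 were higher, against 6.18%; in either direction all genes gave 13.4%. By edgeR with Benjamini-Hochberg adjustment over all genes, 0 members and 0% of all genes passed 0.05, so no member is called higher or lower in what follows. DESeq2 called 1 member, Kcnb2. The count of 20 depended on single libraries. It was 5 when CLO replicate 3 was left out, 11 for CLO replicate 2 and 32 for CLO replicate 1, and 7 when control replicate 2 was left out. The count over all genes moved the same way, from 1171 to 447, 524, 1996 and 353 in the same order.

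In bulk tissue, less RNA per cell and fewer cells of a type cannot be told apart. The CLO libraries held 19637402 to 21189231 counted reads and the control libraries 25232305 to 26812580. The 6 spermatid transcripts had 1 to 3 reads in each CLO library, against 287, 115 and 5 in control libraries. Without control replicates 1 and 2, which leaves a single control, the members' median was -0.12, with 51 of 74 below 0. Over all 16561 genes in that fit, the median was 0.01 and 48.5% were below 0.

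**Figure D1:**
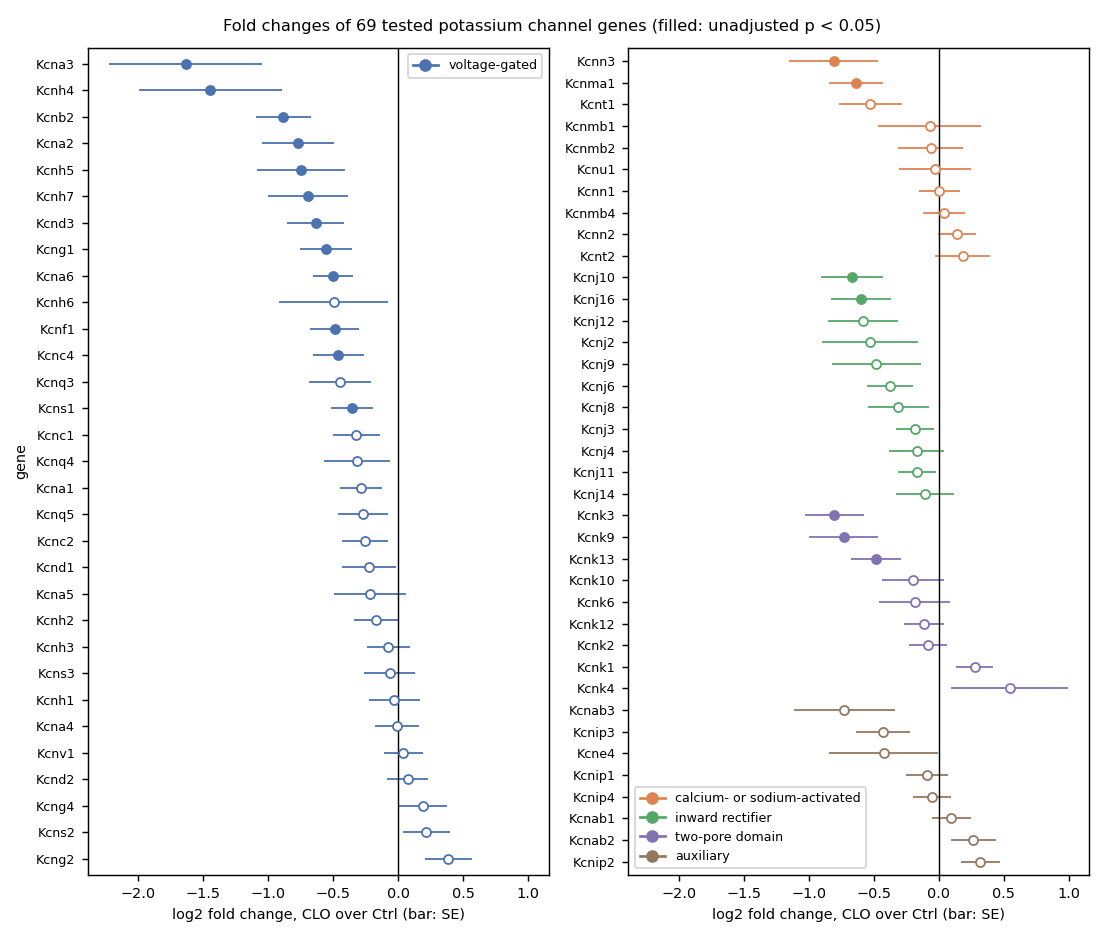
Log2 fold change of CLO over control for 69 of the 72 tested members (points; bars are the SE of edgeR's fit; 3 libraries in each group), sorted within the 5 classes. Filled points have an unadjusted p under 0.05; all 19 of them drawn here lie below 0, and 14 members lie above 0.

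The level of the family was carried by few genes. Kcnab2, the auxiliary beta subunit of Kv1 channels, had 365, 328 and 307 TPM in CLO libraries, against 253, 289.99 and 359 TPM in control libraries, the most of any member. It held 22.0% of the summed mean TPM of the 92 genes, the 5 most abundant members held 43.7% and the 10 most abundant 58.0%. Kcnip2, a calcium-binding auxiliary subunit of Kv4 channels, followed with 118, 117 and 107 TPM in CLO libraries, against 101, 89.8 and 108 TPM in control libraries. Kcnj4 and Kcnk1 came next with means over 6 libraries of 85.3 and 78.8 TPM. Kcnj4, an inward rectifier, had 88.1, 84.1 and 57.3 TPM in CLO libraries, against 134, 78.5 and 69.6 TPM in control libraries, a spread wider than the gap to its neighbours in this order. A mean of at least 10 TPM was reached by 35 members and of at least 1 TPM by 66.

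**Figure D2:**
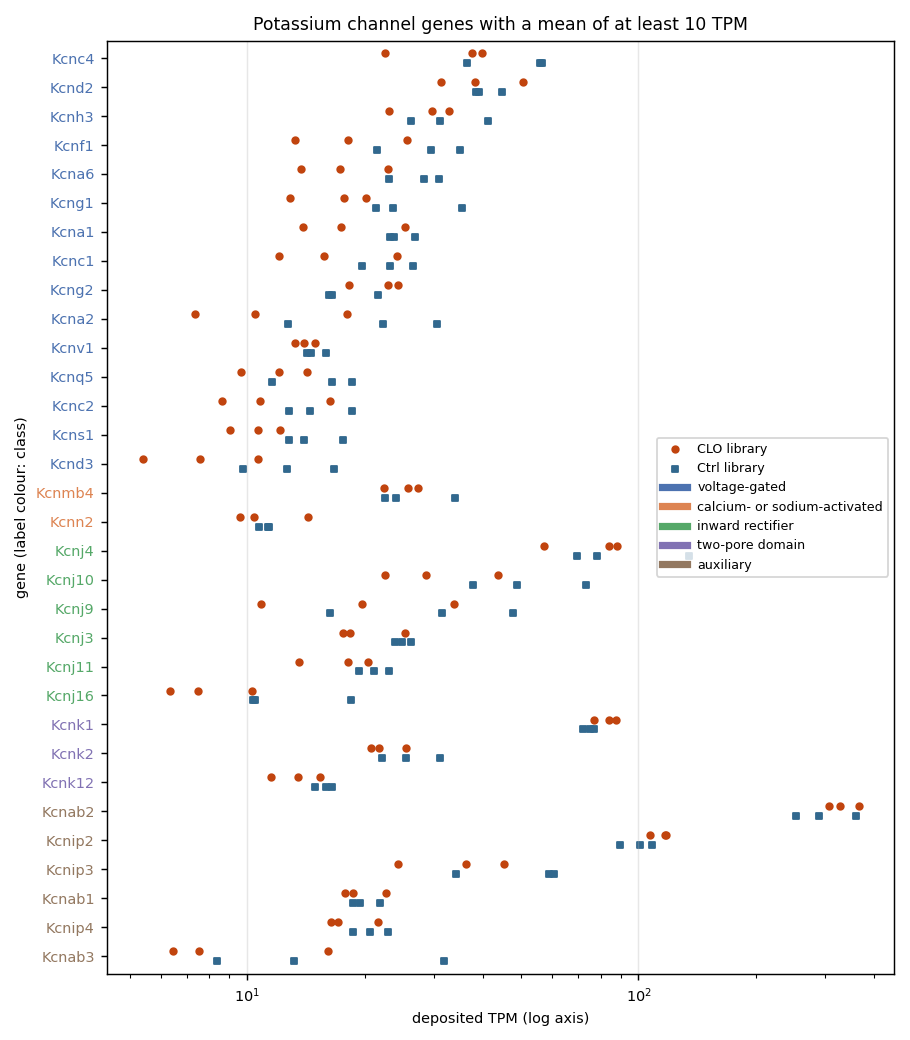
Deposited TPM (log axis) of 32 of the 35 members with a mean of at least 10 TPM, 1 point per library, CLO circles above control squares, grouped by class and sorted by mean within it. Kcnab2 lies farthest right, and for most voltage-gated members at least 1 CLO library lies left of all controls.

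No read fell on Kcnmb3, Kcnj1, Kcnk15, Kcnk16, Kcnk18 or Kcna7 in any library, where 3 reads, the limit that a count of 0 allows, would be 0.113 to 0.154 CPM (counts scaled to the library total) depending on the library; this covers counting error only. Another 14 members had reads but too few to test. Among them Kcnj13, a Kir channel best known in choroid plexus and retinal pigment epithelium, had 0.194, 0.0810 and 0.0780 TPM in CLO libraries, against 1.41, 1.11 and 0.272 TPM in control libraries. All 3 CLO libraries were below all 3 controls, at 1 to 2 reads in each CLO library, against 19, 16 and 4 reads in control libraries. Ttr, the defining choroid plexus marker, was at 2.80, 2.16 and 0.999 TPM in CLO libraries, against 7.06, 1.34 and 4.88 TPM in control libraries, and Otx2 had no read in 3 of 6 libraries. Of the 6 choroid plexus markers tested, 4 were below 0; their part in the Kcnj13 values was not tested. Kcne2, an auxiliary subunit also found in choroid plexus, had 0, 0 and 0.0560 TPM in CLO libraries, against 0, 0 and 0.0490 TPM in control libraries. Kcne4, the most abundant of its family, had 0.232, 0.424 and 0.372 TPM in CLO libraries, against 0.602, 0.499 and 0.455 TPM in control libraries, so these auxiliary subunits were at or near 0. Kcnu1, which encodes the pH-gated channel of sperm, was tested and had 1.28, 1.17 and 0.736 TPM in CLO libraries, against 1.43, 1.01 and 1.08 TPM in control libraries. The groups overlapped. Of the control libraries with the most spermatid reads, replicate 1 was the highest of all 6 libraries for Kcnu1 and replicate 2 the lowest control. The part of spermatid transcripts in the Kcnu1 values was not tested.

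Among the voltage-gated subunits, 29 of 34 tested (85.3%) had values below 0, against 51.8% of all genes tested, with a median of -0.30. At an unadjusted p under 0.05, 13 (38.2%) were lower, against 7.26% of all genes. Their summed level was 542, 420.3 and 323 TPM in CLO libraries, against 553, 588 and 503 TPM in control libraries. As a share of all potassium channel TPM this was 33.9, 31.6 and 28.8% in CLO libraries, against 35.1, 37.5 and 34.3% in control libraries, so every CLO library had a smaller voltage-gated share than every control. No test was run on this share, which also depends on the levels of the other classes. The auxiliary share, which includes Kcnab2, was 37.1, 39.7 and 43.3% in CLO libraries, against 31.2, 31.7 and 38.0% in control libraries. The smaller voltage-gated share therefore does not describe the voltage-gated genes alone.

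Kcnb2, a Kv2 subunit, carries delayed rectifier current at the soma and proximal dendrites and had the smallest p of all members. Its level in TMM-scaled CPM (counts scaled to an effective library size) was 6.69, 6.52 and 5.36 CPM in CLO libraries, against 10.3, 14.6 and 9.41 CPM in control libraries. The groups did not overlap, and the CLO libraries lay close together. The means were 6.19 ± 0.723 CPM in CLO and 11.4 ± 2.75 CPM in control libraries (SD, n = 3 each), and the log2 fold change was -0.88 ± 0.21 (SE) (adjusted p = 0.195 by edgeR). It passed by DESeq2 (adjusted p = 0.0275 by DESeq2) and with no filter on low counts (adjusted p = 0.00481 by edgeR); over all alternatives the adjusted p ran from 0.00481 to 0.815. With the trend in gene length removed the log2 fold change was -0.52. The gene models Gm38116 and Gm37138 overlap Kcnb2 on the same strand, so its count is uncertain. Of the partners that bind Kv2, none reached an unadjusted p under 0.05: Amigo1, a Kv2 auxiliary protein, had a log2 fold change of -0.11, and the endoplasmic reticulum anchors Vapa and Vapb had 0.13 and 0.07.

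The silent subunits, which make no channel alone and alter Kv2 when they join it, had values on both sides of 0. Kcng1 had 36.3, 38.1 and 30.0 CPM in CLO libraries, against 38.9, 67.3 and 47.3 CPM in control libraries without overlap (log2 fold change -0.56 ± 0.20 (SE), adjusted p = 0.304 by edgeR). Kcns1 had 13.1, 13.8 and 12.7 CPM in CLO libraries, against 19.3, 16.0 and 15.4 CPM in control libraries, again without overlap (-0.35 ± 0.16 (SE), adjusted p = 0.372 by edgeR). Kcnf1 had 49.1, 41.6 and 32.7 CPM in CLO libraries, against 67.7, 59.7 and 45.8 CPM in control libraries, with an adjusted p of 0.334 by edgeR. Kcng2 had 46.4, 59.0 and 47.6 CPM in CLO libraries, against 33.1, 35.2 and 48.7 CPM in control libraries, a log2 fold change of 0.39 ± 0.18 (SE). Kcng4 was 1 of the 2 members tested whose CLO libraries all lay above control in CPM. It had 8.27, 8.04 and 8.58 CPM in CLO libraries, against 6.08, 7.74 and 7.99 CPM in control libraries. Its log2 fold change was only 0.19 ± 0.18 (SE), about the size of its error. In TPM its groups overlapped, at 5.43, 4.41 and 4.36 TPM in CLO libraries, against 3.95, 4.81 and 4.72 TPM in control libraries. Kcns2 and Kcns3 had log2 fold changes of 0.22 and -0.07. Kcnv1 had 32.3, 36.5 and 37.2 CPM in CLO libraries, against 31.2, 33.4 and 38.6 CPM in control libraries, a log2 fold change of 0.04 ± 0.15 (SE).

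The Kv1 subunits, low-threshold channels of axons, all had values below 0 in the 6 members tested, against 51.8% of all genes tested. Kcna6 had 57.2, 51.5 and 44.2 CPM in CLO libraries, against 78.0, 74.7 and 64.0 CPM in control libraries. The groups did not overlap. Means were 51.0 ± 6.55 CPM in CLO and 72.3 ± 7.33 CPM in control libraries (SD, n = 3 each), a log2 fold change of -0.50 ± 0.15 (SE) (adjusted p = 0.265 by edgeR). Kcna2, the axonal subunit that assembles with Kcna1 and Kcnab2, had 88.0, 61.5 and 46.6 CPM in CLO libraries, against 151, 115 and 69.2 CPM in control libraries. The spread within each group was wide and control replicate 3 stood inside the CLO range. Its log2 fold change was -0.77 ± 0.28 (SE) (adjusted p = 0.302 by edgeR) and -0.08 with control replicate 3 as the single control. Kcna1 had 87.8, 72.1 and 62.6 CPM in CLO libraries, against 83.3, 98.7 and 89.8 CPM in control libraries, a log2 fold change of -0.29 ± 0.16 (SE). Kcna3, known from microglia and lymphocytes as well as neurons, was near 1 CPM or below in every CLO library, with 0.935, 0.588 and 0.511 CPM in CLO libraries, against 0.418, 2.99 and 2.96 CPM in control libraries. Control replicate 1 was the lowest library of all, and the log2 fold change of -1.64 ± 0.59 (SE) comes with control replicates 2 and 3 far above the other libraries. Kcna4 and Kcna5 had -0.01 ± 0.17 (SE) and -0.22 ± 0.28 (SE), each smaller than its SE, and Kcna4 was above 0 in several settings. For the beta subunits, Kcnab2 had a log2 fold change of 0.26 ± 0.17 (SE), Kcnab1 had 0.10 ± 0.15 (SE), and Kcnab3 had -0.73 ± 0.39 (SE) with control replicate 1 at 36.8 CPM and the other 5 libraries between 9.55 and 18.5 CPM.

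Several Kv1 genes are neighbours. On chromosome 6 of GRCm39 Kcna5, Kcna1 and Kcna6 lie in a row with gaps of 105.0 and 61.9 kb, Kcna6 spanning chromosome 6, 126685292 to 126717637, minus strand. On chromosome 3 Kcna3, Kcna2 and Kcna10 are separated by 63.1 and 68.1 kb. Kcna10 had at most 0.08 TPM in any library, at most 2 reads. Among axonal partners of Kv1, 7 of 8 tested had values below 0 and 4 reached an unadjusted p under 0.05. Of all genes tested, 51.8% were below 0 and 7.26% were lower at that p. These partners are long, with a median deposited length of 13962 bp. Among all genes of 7597 bp and more, 82.1% were below 0. Cntn2, an adhesion protein of juxtaparanodes, had a log2 fold change of -0.49 ± 0.19 (SE), Adam22 of -0.48 ± 0.19 (SE), Dlg2 of -0.63 ± 0.28 (SE) and Ank3, the scaffold of the axon initial segment, of -0.63 ± 0.20 (SE). Their adjusted p-values ran from 0.283 (Ank3) to 0.361 (Dlg2) by edgeR. Dlg4 was at 0.03 and Lgi1 at -0.05.

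Kv3 subunits, which allow fast firing of parvalbumin interneurons, are the Kcnc genes. Kcnc4, the most abundant of them per length, had 39.9, 37.5 and 22.4 TPM in CLO libraries, against 56.6, 55.8 and 36.5 TPM in control libraries. In CPM the log2 fold change was -0.46 ± 0.20 (SE) (adjusted p = 0.353 by edgeR). With control replicate 3 as the single control it was -0.10. Kcnc1, the subunit most typical of parvalbumin cells, had 94.6, 73.9 and 61.3 CPM in CLO libraries, against 91.7, 110.2 and 85.8 CPM in control libraries, -0.32 ± 0.18 (SE). Kcnc2 had -0.26 ± 0.18 (SE). The list used for parvalbumin interneurons was Pvalb, Gad1, Gad2, Slc32a1, Tac1 and Erbb4, and is not specific to these cells. Values were below 0 in 6 of 6 genes. Their summed level was 295, 235 and 232 TPM in CLO libraries, against 403, 302 and 252 TPM in control libraries. Pvalb itself had 117, 103 and 115 TPM in CLO libraries, against 205, 109 and 93.0 TPM in control libraries. The part of interneuron content in the Kv3 values was not tested.

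Kv4 subunits and their partners carry the A-type current of dendrites. Kcnd2, the main Kv4 pore of pyramidal cells, had 50.6, 38.1 and 31.2 TPM in CLO libraries, against 39.1, 38.5 and 44.8 TPM in control libraries and a log2 fold change of 0.07 ± 0.16 (SE). Kcnd3, stronger in interneurons, had 43.4, 37.0 and 28.6 CPM in CLO libraries, against 40.2, 71.8 and 57.4 CPM in control libraries. CLO replicate 1 stood above control replicate 1. The log2 fold change was -0.64 ± 0.22 (SE) (adjusted p = 0.295 by edgeR). Of the Kcnip partners, Kcnip2 had 0.32 ± 0.15 (SE), Kcnip3 -0.43 ± 0.21 (SE), Kcnip1 -0.09 ± 0.16 (SE) and Kcnip4 -0.06 ± 0.15 (SE), none at an unadjusted p under 0.05. Kcnip4, with 33.1, 29.9 and 33.8 CPM in CLO libraries, against 35.5, 30.2 and 35.0 CPM in control libraries, spans many unnamed models on its own strand and its count is uncertain. Dpp10, a second type of Kv4 partner, had 28.5, 24.5 and 27.5 CPM in CLO libraries, against 54.3, 54.5 and 36.1 CPM in control libraries. The groups did not overlap, and at -0.85 ± 0.18 (SE) its adjusted p of 0.172 by edgeR was smaller than that of any member, although it too overlaps models on the same strand. Dpp6 had -0.16. Over all 26 partners tested, 19 had values below 0 and 8 were lower at an unadjusted p under 0.05, with 0 higher and 0 past the adjusted threshold by edgeR. These were 73.1% below 0 and 30.8% lower at that p, against 51.8% and 7.26% of all genes tested. The partners' median deposited length was 7988 bp. Among all genes of 7597 bp and more, 82.1% were below 0.

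KCNQ subunits form the M-channel, which brakes repetitive firing. Kcnq3 had 12.6, 7.50 and 4.35 TPM in CLO libraries, against 11.4, 13.1 and 10.5 TPM in control libraries, with CLO replicate 3 the lowest library and CLO replicate 1 within the control range. Its log2 fold change was -0.45 ± 0.24 (SE) (unadjusted p = 0.0862, adjusted p = 0.42 by edgeR), and -0.14 with the length trend removed.

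The EAG-related genes were below 0 in 7 of 7, against 51.8% of all genes tested. Of these, Kcnh1 and Kcnh3 were above 0 with the length trend removed. Kcnh2 and Kcnh3 were above 0 with control replicate 3 as the single control. Kcnh3, a forebrain subunit and the most abundant, had 32.8, 29.7 and 23.1 TPM in CLO libraries, against 41.2, 31.1 and 26.1 TPM in control libraries (-0.08 ± 0.16 (SE)). Kcnh7 had 18.3, 11.8 and 7.30 CPM in CLO libraries, against 28.1, 17.7 and 14.6 CPM in control libraries, and its log2 fold change was -0.69 ± 0.31 (SE) (adjusted p = 0.361 by edgeR). Kcnh4 had 0.787, 0.343 and 0.204 CPM in CLO libraries, against 2.05, 1.01 and 0.615 CPM in control libraries, a value of -1.44 that was -0.45 with control replicate 3 as the single control. Kcnh5 was near 1 CPM (0.944 ± 0.256 CPM in CLO and 1.59 ± 0.421 CPM in control libraries).

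**Figure D3:**
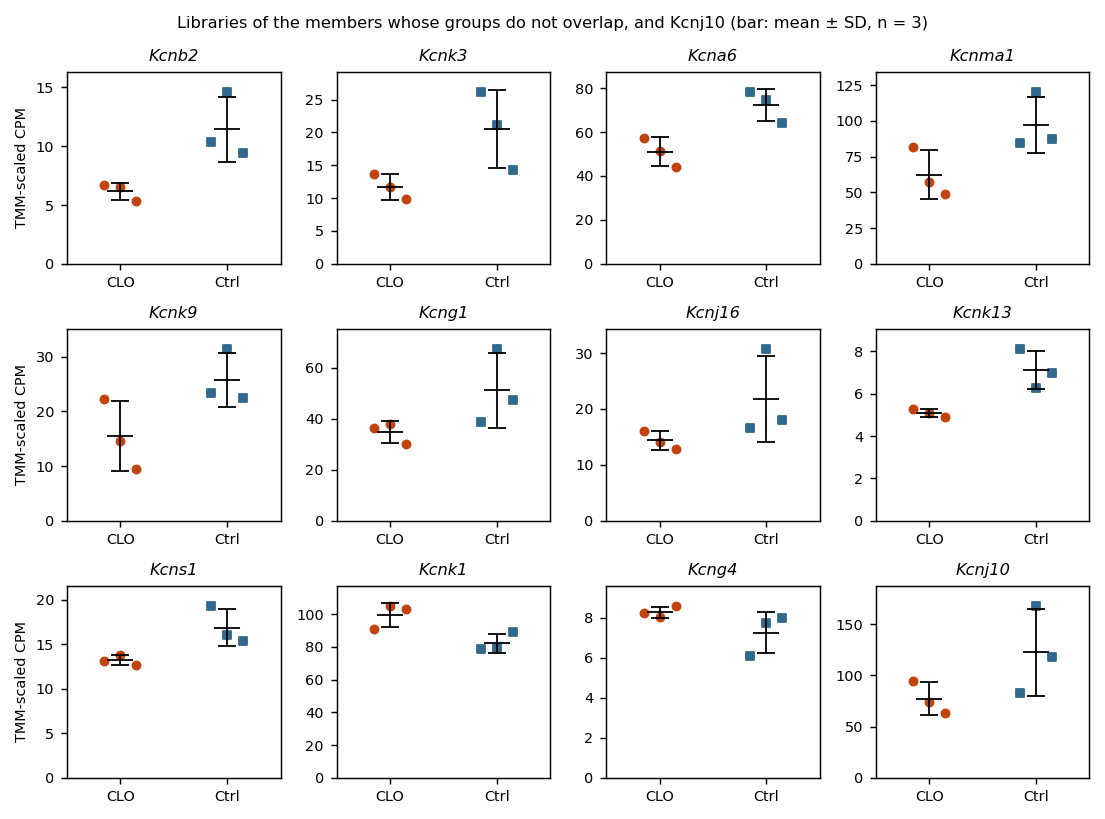
TMM-scaled CPM of the 11 members tested whose CLO and control libraries do not overlap, ordered by p, and of Kcnj10. Points are libraries and bars the mean ± SD (n = 3 each); only Kcnk1 and Kcng4 lie higher in CLO.

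In TMM-scaled CPM, groups did not overlap for 11 of the 72 members (15.3%), close to the 14.5% of all genes tested. The split was uneven: 9 lower (12.5%, against 6.7% of all genes) and 2 higher (2.78%, against 7.84%). These shares describe the fitted set and carry no test. They depend on the measure: in deposited TPM the groups overlapped for Kcnk1, Kcng4, Kcnma1, Kcnk9 and Kcnk3.

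The promoters of 4 members, chosen after their values were seen, are shown because each has a single RefSeq window. They are Kcna6, Kcnma1 and Kcnk1, whose groups did not overlap in TMM-scaled CPM, and Kcnj10, the glial member with the smallest p. Each window runs from 250 bases before to 50 after the start, read 5′ to 3′ on the gene's strand from RefSeq on GRCm38.p6, a different build from the GRCm39 positions of the deposited table. Capitals mark a GC box (GGGCGG or its complement).
Kcna6 (chr6:126740625-126740924, minus strand): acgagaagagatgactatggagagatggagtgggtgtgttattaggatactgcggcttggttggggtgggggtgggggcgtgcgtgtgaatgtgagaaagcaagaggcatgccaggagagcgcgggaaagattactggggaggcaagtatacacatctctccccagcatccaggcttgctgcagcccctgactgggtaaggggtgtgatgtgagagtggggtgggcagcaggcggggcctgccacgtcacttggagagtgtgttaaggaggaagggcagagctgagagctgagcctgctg
Kcnma1 (chr14:24004156-24004455, minus strand): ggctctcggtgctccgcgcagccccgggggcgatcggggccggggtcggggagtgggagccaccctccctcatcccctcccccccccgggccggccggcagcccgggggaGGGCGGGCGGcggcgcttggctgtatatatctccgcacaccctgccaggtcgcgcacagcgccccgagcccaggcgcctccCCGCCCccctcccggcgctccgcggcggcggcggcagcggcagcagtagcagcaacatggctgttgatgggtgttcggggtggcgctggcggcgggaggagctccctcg
Kcnj10 (chr1:172340960-172341259, plus strand): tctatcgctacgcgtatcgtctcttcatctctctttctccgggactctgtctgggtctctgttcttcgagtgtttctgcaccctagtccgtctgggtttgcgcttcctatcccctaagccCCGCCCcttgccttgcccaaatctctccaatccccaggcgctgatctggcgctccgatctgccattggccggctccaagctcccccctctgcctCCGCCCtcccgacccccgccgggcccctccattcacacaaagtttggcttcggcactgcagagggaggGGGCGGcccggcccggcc
Kcnk1 (chr8:125994852-125995151, plus strand): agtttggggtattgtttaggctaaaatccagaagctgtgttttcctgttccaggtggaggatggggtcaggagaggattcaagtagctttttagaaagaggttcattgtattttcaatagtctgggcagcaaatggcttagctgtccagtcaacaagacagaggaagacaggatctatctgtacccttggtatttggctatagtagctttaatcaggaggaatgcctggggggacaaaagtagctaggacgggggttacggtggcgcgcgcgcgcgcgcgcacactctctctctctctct
The windows of Kcnma1 and Kcnj10 each hold 3 GC boxes, 2 of them overlapping in Kcnma1, and those of Kcna6 and Kcnk1 hold 0. CpG pairs numbered 36 in Kcnma1, 21 in Kcnj10, 10 in Kcnk1 and 8 in Kcna6. RefSeq windows were found for 67 of the 92 members, 92 windows in all. A GC box on either strand was in 47.8% of them, against 35.7% of 32851 windows of all genes. The cyclic AMP response element TGACGTCA was in 0 of 92, against 1.79% of all, and the TATA box TATAAA in 5.43%, against 13.6%. Median GC content was 59.7% in windows of members tested, 57% in those not tested and 52.7% in all windows. E-boxes (CACGTG) were in 7.61%, against 7.15%. A match or its absence describes only the letters of the window.

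In the calcium- or sodium-activated class, 6 of 10 members tested (60%) were below 0, near the 51.8% of all genes tested, with a median of -0.05. At an unadjusted p under 0.05, 2 (20%) were lower, against 7.26% of all genes. Kcnma1, the pore of the BK channel that joins voltage and calcium gating, had 81.6, 57.1 and 48.7 CPM in CLO libraries, against 84.8, 119.95 and 87.1 CPM in control libraries. The groups did not overlap, though CLO replicate 1 at 81.6 CPM came close to control replicate 1 at 84.8 CPM. Means were 62.5 ± 17.1 CPM in CLO and 97.3 ± 19.7 CPM in control libraries (SD, n = 3 each), log2 fold change -0.64 ± 0.21 (SE), adjusted p = 0.288 by edgeR. It is the longest member tested at 19418 bp, and with the length trend removed the value was -0.23. Its neuronal auxiliary subunit Kcnmb4 had 78.0, 88.0 and 82.4 CPM in CLO libraries, against 97.8, 72.3 and 71.3 CPM in control libraries, a log2 fold change of 0.04 ± 0.16 (SE). Lrrc55, a BK gamma subunit, had -0.72 ± 0.29 (SE).

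SK channels, which produce the after-hyperpolarisation, differed by gene. Kcnn3 had 8.51, 4.56 and 3.37 CPM in CLO libraries, against 6.95, 13.9 and 7.95 CPM in control libraries, -0.81 ± 0.34 (SE) (adjusted p = 0.351 by edgeR), and CLO replicate 1 within the control range. Kcnn2, the main SK gene of CA1 dendrites, had 14.3, 10.4 and 9.59 TPM in CLO libraries, against 10.7, 11.3 and 11.4 TPM in control libraries (0.14 ± 0.15 (SE)), and Kcnn1 0.00 ± 0.16 (SE). The sodium-activated Kcnt1 had 15.4, 10.9 and 8.83 CPM in CLO libraries, against 19.3, 19.5 and 11.9 CPM in control libraries (-0.53 ± 0.24 (SE)). With control replicate 3 as the single control its log2 fold change was -0.02. Kcnt2 had 0.18 ± 0.21 (SE).

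All 11 inward rectifiers tested had values below 0, against 51.8% of all genes tested, with a median of -0.38. The 2 with an unadjusted p under 0.05, Kcnj10 and Kcnj16, are known from glia. They were 18.2% of those tested, against 7.26% of all genes lower at that p. With control replicate 3 as the single control, Kcnj2, Kcnj4, Kcnj8 and Kcnj9 were above 0, at 0.30, 0.18, 0.16 and 0.40. The summed level of all inward rectifiers was 239, 189 and 139.99 TPM in CLO libraries, against 299, 269 and 207 TPM in control libraries. Kcnj10 (Kir4.1), the main K+ conductance of astrocytes, had 94.5, 74.1 and 63.0 CPM in CLO libraries, against 82.4, 167 and 118 CPM in control libraries. Control replicate 2 was far above the rest and control replicate 1 lay below CLO replicate 1. The log2 fold change was -0.67 ± 0.24 (SE) (adjusted p = 0.301 by edgeR), and -0.37 without control replicate 2. Kcnj16 (Kir5.1), which joins Kir4.1 in one channel, had 16.1, 14.1 and 12.9 CPM in CLO libraries, against 16.6, 30.6 and 18.1 CPM in control libraries. Control replicate 2 again stood highest, and the groups were separated by a narrow margin. Its value was -0.60 ± 0.23 (SE) (adjusted p = 0.328 by edgeR) and -0.27 without control replicate 2. The ratio of Kcnj10 to Kcnj16 in TPM was 4.26, 3.82 and 3.56 in CLO libraries, against 3.61, 3.98 and 4.73 in control libraries, with overlapping groups. Of 7 astrocyte markers, 4 were below 0, with a median of -0.10 and a summed level of 1333, 1129 and 1129 TPM in CLO libraries, against 1218, 1533 and 1254 TPM in control libraries. Control replicate 2 was also the highest astrocyte library. The part of astrocyte content in the Kcnj10 and Kcnj16 values was not tested.

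G-protein-gated Kir subunits carry slow inhibition from GABA-B and other receptors. Kcnj3 had 81.7, 67.7 and 76.1 CPM in CLO libraries, against 80.9, 81.1 and 94.0 CPM in control libraries (-0.18 ± 0.15 (SE)), Kcnj6 had 34.1, 31.4 and 24.6 CPM in CLO libraries, against 31.9, 42.3 and 42.9 CPM in control libraries (-0.38 ± 0.18 (SE)), and Kcnj9 had 57.9, 40.2 and 24.0 CPM in CLO libraries, against 82.5, 56.9 and 30.9 CPM in control libraries (-0.48 ± 0.34 (SE)). Kcnj6 reached an unadjusted p of 0.0543 by edgeR, and with the length trend removed its log2 fold change was -0.03. The receptor subunit Gabbr2 had -0.54 ± 0.27 (SE) and Gabbr1 -0.06 ± 0.17 (SE), while Rgs6, which speeds the closing of these channels, had -0.81 ± 0.26 (SE) and Gnb5, its binding partner, 0.17 ± 0.14 (SE). Kcnj9 and Kcnj10 are neighbours on chromosome 1 with a gap of 11.9 kb, and Kcnj16 and Kcnj2 on chromosome 11 with a gap of 38.2 kb, yet Kcnj9 was highest in control replicate 1 and Kcnj10 in control replicate 2.

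The ATP-sensitive pores had -0.17 ± 0.15 (SE) for the neuronal Kcnj11 and -0.31 ± 0.24 (SE) for Kcnj8, which is typical of pericytes and had 3.94, 3.82 and 4.75 CPM in CLO libraries, against 5.77, 6.02 and 3.73 CPM in control libraries. Their sulphonylurea receptors had -0.30 ± 0.15 (SE) for Abcc8 and -0.79 ± 0.29 (SE) for Abcc9, the partner of Kcnj8, with 4.63, 2.55 and 3.17 CPM in CLO libraries, against 4.37, 8.22 and 5.34 CPM in control libraries. Pericyte markers were below 0 in 6 of 6 genes, at 185, 164 and 137 TPM in CLO libraries, against 198, 216 and 154 TPM in control libraries. Their part in the Kcnj8 and Abcc9 values was not tested. Among classical Kir2 genes, Kcnj4, the most abundant Kir member, had -0.17 ± 0.21 (SE), Kcnj12 -0.58 ± 0.27 (SE) and Kcnj2 -0.53 ± 0.37 (SE).

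In the K2P class, 7 of 9 members tested (77.8%) were below 0, against 51.8% of all genes tested, with a median of -0.18. At an unadjusted p under 0.05, 3 (33.3%) were lower, against 7.26% of all genes. Kcnk3 (TASK-1), a background channel closed by acid, had 13.7, 11.7 and 9.80 CPM in CLO libraries, against 26.1, 21.2 and 14.2 CPM in control libraries. The lowest control, replicate 3, was just above the highest CLO library. Means were 11.7 ± 1.96 CPM in CLO and 20.5 ± 5.96 CPM in control libraries (SD, n = 3 each), log2 fold change -0.80 ± 0.23 (SE), adjusted p = 0.235 by edgeR. With control replicate 3 as the single control the value was -0.27. Kcnk9 (TASK-3), its close relative, had 22.2, 14.6 and 9.55 CPM in CLO libraries, against 23.4, 31.3 and 22.4 CPM in control libraries, and CLO replicate 1 nearly reached the controls. It had -0.73 ± 0.26 (SE) (adjusted p = 0.302 by edgeR).

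Kcnk13, a K2P channel of microglia, had 5.27, 5.10 and 4.90 CPM in CLO libraries, against 8.09, 6.28 and 6.99 CPM in control libraries. The CLO libraries were tight and all below control, -0.48 ± 0.19 (SE) (adjusted p = 0.335 by edgeR). Microglial markers had values above 0 in 5 of 6 genes, with a summed level of 476, 448 and 404 TPM in CLO libraries, against 441, 408 and 394 TPM in control libraries, and their part in the Kcnk13 values was not tested. Kcnk1 (TWIK-1) had 90.9, 105 and 103 CPM in CLO libraries, against 78.8, 79.3 and 88.9 CPM in control libraries, all CLO libraries above control, with 0.28 ± 0.14 (SE) and an adjusted p of 0.409 by edgeR. Its TPM was 82.9 ± 5.52 TPM in CLO and 74.8 ± 2.42 TPM in control libraries (SD, n = 3 each). By library this was 87.5, 84.3 and 76.77 TPM in CLO libraries, against 75.1, 72.2 and 76.97 TPM in control libraries. In TPM the groups thus overlapped, with control replicate 3 above CLO replicate 3. The ratio of Kcnk3 to Kcnk1 in TPM was 0.0954, 0.0703 and 0.0600 in CLO libraries, against 0.209, 0.169 and 0.101 in control libraries. In CPM the CLO libraries lay below control for Kcnk3 and above it for Kcnk1, so this ratio only restates those values. Kcnk2, the mechanosensitive TREK-1, had -0.08 ± 0.15 (SE), and Kcnk10 -0.20 ± 0.24 (SE). Kcnk12 had -0.11 ± 0.16 (SE). Kcnk4 had the highest value of all members, 0.54 ± 0.45 (SE), at around 1 CPM (0.982 ± 0.323 CPM in CLO and 0.672 ± 0.364 CPM in control libraries), and shares its strand with the overlapping gene Catsperz.

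CLO replicate 3 was the lowest library for 42 of 72 members (58.3%), against 26.0% of all genes tested, and control replicate 2 the highest for 28 (38.9%), against 24.5%. CLO replicate 1 was the lowest for 2. The mean deviation of the 72 members from their 6-library mean, in log2 CPM, was 0.05, -0.15 and -0.32 in CLO libraries, against 0.13, 0.23 and 0.06 in control libraries. CLO replicate 1 and control replicate 3 were thus nearly level. Markers of neocortex deviated by 0.01, -0.34 and -0.55 in CLO libraries, against 0.60, 0.42 and -0.14 in control libraries, and those of CA3 and CA2 pyramidal cells by 0.17, 0.42 and 0.50 in CLO libraries, against -0.38, -0.68 and -0.03 in control libraries; all 6 CA3 and CA2 genes had values above 0. All 7 neocortex markers tested had values below 0. The neocortex list summed to 97.0, 67.3 and 57.5 TPM in CLO libraries, against 137, 98.2 and 84.5 TPM in control libraries, and the part of tissue composition in the channel values was not tested.

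**Figure D4:**
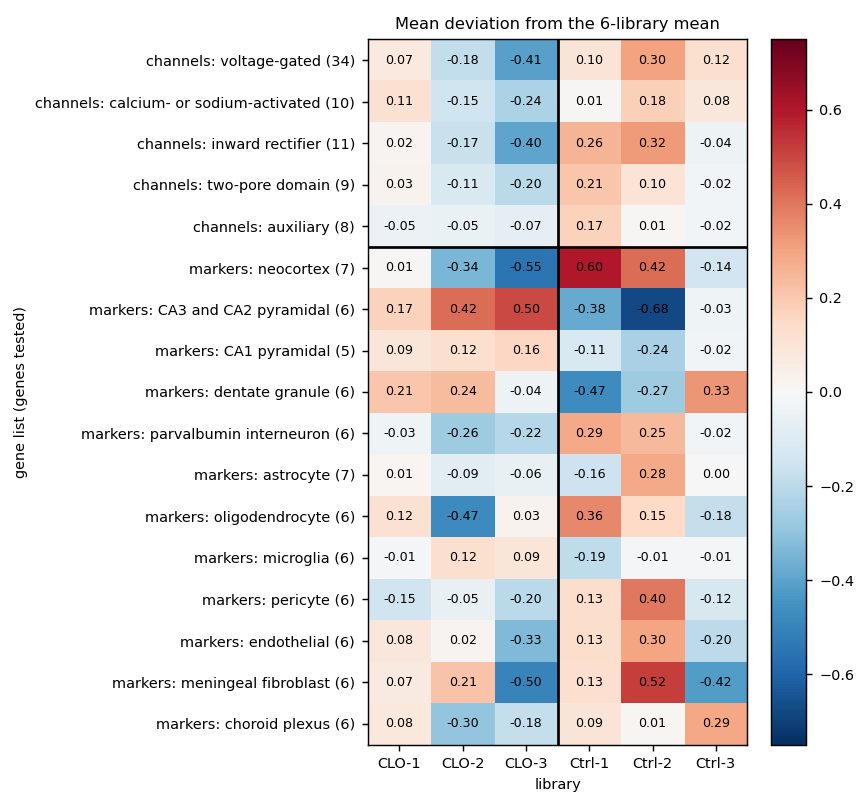
Mean deviation from the 6-library mean in log2 CPM for the tested members of the 5 channel classes (top) and for marker lists of regions and cell types (bottom), 1 column per library with CLO left of control; numbers in brackets count genes tested. CLO replicate 3 is lowest for every channel class, and control replicate 1 or 2 is highest for each.

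Gene length moved with the result as well. Members tested had a median deposited length of 5028 bp, against 4237 bp over all genes. Among the longest 20% of genes (7597 bp and more) the median log2 fold change was -0.25, and 18 of 20 members there were below 0 (90.0%), against 82.1% of all genes in that range. Those long genes deviated by 0.06, -0.15 and -0.31 in CLO replicates 1, 2 and 3, against 0.00, 0.29 and 0.11 in control replicates 1, 2 and 3, with CLO replicate 3 lowest and control replicate 2 highest, as for the members. From 2011 to 3467 bp, 11 of 12 members were below 0, against 36.7% of all genes, and from 3468 to 5095 bp 18 of 23, against 51.5%. From 5096 to 7596 bp it was 9 of 15, against 66.9%. After removal of the trend with length from every library, 53 of 72 members were below 0, with a median of -0.18, 18 lower at an unadjusted p under 0.05 and 5 higher. Of all 16129 genes in that fit, 50.6% were below 0, 900 were lower at that p and 781 were higher. Values that shrank included Kcnma1 (-0.23), Kcnb2 (-0.52), Kcnj6 (-0.03) and Kcnq3 (-0.14). Those of Kcnk3 (-0.80), Kcnj16 (-0.61), Kcnk13 (-0.54) and Kcns1 (-0.43) did not.

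**Figure D5:**
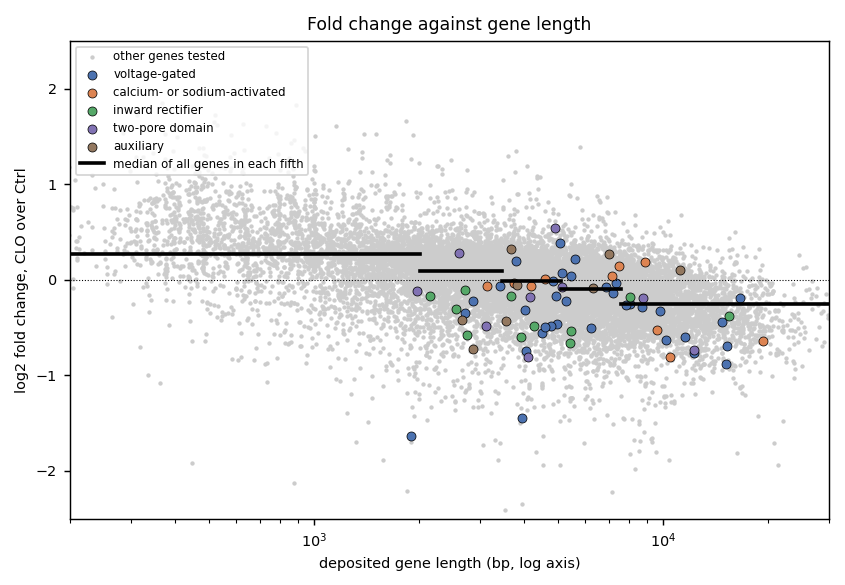
Log2 fold change of CLO over control against deposited gene length (log axis) for all genes tested (grey; the most extreme points lie outside the axes) and for the 72 members by class. Black bars are the medians of all genes in 5 equal length groups, 0.27 in the shortest and -0.25 in the longest; most members lie below the bar of their own group.

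Some counts carry a further limit. Of the members tested, 14 overlap another annotated gene on the same strand and 32 on the opposite strand, and the labels do not state whether strand was used in counting. Kcnip1 and Kcnmb1 overlap each other on opposite strands of chromosome 11.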

How the data were processed

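RNA from the hippocampus was poly(A)-selected, made into strand-keeping libraries and sequenced, per the labels' protocols. The authors deposited raw read counts per gene and TPM for 6 libraries. Of software, cutadapt 2.9, HISAT2 2.2.0 and featureCounts 2.6.0 are listed together with the build GRCm39, per the submitters' processing notes, which give no role, order or options. The deposited TPM were recomputed from counts and lengths to within 5e-04. The 1103 rows with no annotated gene, 0.64% to 0.78% of each library's counts, were left out.

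Counts were tested with edgeR 4.0.16 (R 4.3.3): filterByExpr, TMM factors, a robust quasi-likelihood test of CLO against control without a block, two-sided, Benjamini-Hochberg adjustment over 16129 genes, threshold 0.05. The SE is the log2 fold change over the square root of F. CPM were computed here from the deposited counts. Library deviations were taken on log2 CPM (prior count 2). DESeq2 1.42.0, limma-voom (limma 3.58.1), other scaling, filters, a block, a length correction and left-out libraries were alternatives. The fit was tested on simulated data. Values in every library were given for the most abundant member of each family, the 12 smallest p, members without overlap (mean of at least 1 CPM) and 2 lists of glial, vascular and choroid plexus members and of members known in hippocampal neurons; others were named within their family and partners from 1 list. Members, marker and partner lists were chosen with earlier results of these data known. Values of some members and partners on these lists are not reported here, although counts and sums include them.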

Additional observations from a re-analysis of the deposited data

How the results depend on the processing

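The main counts kept their direction under 14 alternatives: members below 0 ran from 51 of 74 (control replicate 3 as the single control) to 69 of 86 (no filter on low counts), and their median from -0.34 to -0.12. Of the 20 members at an unadjusted p under 0.05, 20 were below 0 in all 14; of all 72 tested, 39 were below 0 and 6 above 0 in every one, and 27 changed sign at least once. Calls past the adjusted threshold were 1 member and 1 partner by DESeq2 and 15 members and 5 partners with no filter on low counts, settings that called 198 and 699 of all genes; limma-voom called 0. The fit with control replicate 3 as the single control assumes that the lone control varies like the CLO libraries. The members lower at an unadjusted p under 0.05 were 5 to 32 when 1 library was left out, against 353 to 1996 of all genes. Members higher at that p were 1 by limma-voom, 1 with no filter and 5 with the length trend removed. When 1 library was left out they were 0 to 3. Partner calls were 0 to 1 then. With the replicate number as a block, 0 members passed, 22 were lower at an unadjusted p under 0.05 and the median was -0.24. Same-numbered libraries did not deviate together (correlations across genes of -0.16, -0.09 and 0.28), so the numbers were not taken as pairs. The causes of these changes were not tested. Members under about 1 CPM rest on few reads, and a count of 0 covers counting error only. Sign changes, with the log2 fold change under the setting, were these. By limma-voom the sign changed for Kcnn1 (-0.0012). With no filter on low counts the sign changed for Kcnn1 (-0.0102). With the replicate block the sign changed for Kcnn1 (-0.0016). With the length trend removed the sign changed for Kcnip1 (0.0065), Kcna4 (0.0287), Kcnh1 (0.106) and Kcnh3 (0.0352). With control replicate 3 as the single control the sign changed for Kcnab1 (-0.0962), Kcnab2 (-0.0505), Kcnab3 (0.265), Kcnip3 (0.0801), Kcnt2 (-0.185), Kcnu1 (0.0136), Kcnj2 (0.299), Kcnj4 (0.180), Kcnj8 (0.164), Kcnj9 (0.397), Kcnk10 (0.0782), Kcnk2 (0.0908), Kcnk6 (0.0989), Kcna4 (0.0582), Kcnd2 (-0.128), Kcnh2 (0.0216), Kcnh3 (0.173), Kcns2 (-0.0821) and Kcnv1 (-0.124). When 1 library was left out, the sign changed at least once for Kcnmb1 (-0.352 to 0.172), Kcnmb2 (-0.212 to 0.102), Kcnmb4 (-0.0359 to 0.201), Kcnn1 (-0.0938 to 0.0596), Kcnu1 (-0.146 to 0.119), Kcnj4 (-0.316 to 0.123), Kcnk2 (-0.156 to 0.0172), Kcnk6 (-0.304 to 0.0711), Kcna4 (-0.0873 to 0.110), Kcnd2 (-0.0052 to 0.187), Kcnh1 (-0.219 to 0.118), Kcnh3 (-0.183 to 0.0752), Kcns3 (-0.206 to 0.0597) and Kcnv1 (-0.0299 to 0.132).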
